A study of Mus musculus with 15 samples.

Results

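RNA of 10 macrophage marker genes was followed in the plantaris, a fast hindlimb muscle, of mice that were untrained, trained by weighted wheel running or detrained. The genes were chosen by symbol from the 20406 genes of the deposited count table: Csf1r, Mrc1, Cd163, Lyz2, Cd68, Adgre1, Ptprc, C1qa, C1qb and C1qc. All 10 were listed once, had a count in each of the 15 libraries and passed the filter on low counts. In 8 weeks of training none of them passed the test over all genes, although all 10 lay above the untrained level. Lyz2 rose in the libraries titled as trained but labelled LD, and in the 9-month mice no marker separated the detrained from the untrained group.

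Macrophages of skeletal muscle lie between the fibres, in the connective tissue and along vessels, where they clear debris and signal to progenitor cells, and further monocytes enter from blood after damage or unaccustomed exercise. Their growth and survival depend on the receptor encoded by Csf1r. They are also the main makers of C1q, the molecule that opens the classical complement pathway, which is assembled from chains of the 3 genes C1qa, C1qb and C1qc.

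The 5 groups held 3 plantaris libraries each, all from male HSA-GFP mice that entered the study at 4 months of age. In these mice the human skeletal actin promoter drives a reverse tetracycline transactivator, and a tetracycline response element drives a fusion of histone 2B to green fluorescent protein, so the label marks muscle fibre nuclei and not macrophages. Untrained mice of 6 months formed 6M_UT, and mice of 6 months that had run for 8 weeks on wheels loaded with rising weight (PoWeR, a voluntary training model) formed 6M_PoW. Untrained mice of 9 months formed 9M_UT, and mice of 9 months that had trained for 8 weeks and then detrained for 12 weeks formed 9M_PoW+DT. The group 6M_POW_LD held 3 more libraries, whose titles give trained replicate numbers 4 to 6 and the letters LD, which the labels leave unexplained. Groups follow the titles, because the treatment field contradicts them: it swaps both 9-month groups and calls the 3 LD libraries sedentary. Directions that use these 9 libraries rest on the titles. Identifiers in the titles form 3 series, PoW for 6M_UT and 6M_PoW, DT for both 9-month groups and LD for 6M_POW_LD. Age cannot be told apart from series, nor can any difference of the LD libraries from the other 6-month groups, the Lyz2 call included. Nothing in the labels says that replicates are separate mice, and p-values then measure only the spread between these samples, which may be technical.

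Libraries held 18865048 to 27688842 counts, of which the 10 markers together took 1153 to 2510. The tissue label was checked with 8 muscle fibre genes, among them Acta1 and Myh4, which summed to 96014 to 134444 CPM (counts per 1000000 of the scaled library total) with none at 0. A count of 0 in a library allows a level of up to 3 counts, or 0.106 to 0.165 CPM, and the lowest marker value, 0.387 CPM of Cd68, stood above it. Counts per library were 445 to 1067 for Lyz2 but 15 to 58 for Adgre1, 18 to 61 for Ptprc and 9 to 52 for Cd68. Counting error alone was therefore 13.9% to 33.3% of a Cd68 value and 3.06% to 4.74% of a Lyz2 value. These limits cover counting error only. In bulk muscle, fewer cells of a type and less RNA per cell cannot be told apart.

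Promoter sequences from RefSeq (build GRCm38.p6, mouse mm10) are shown because they hold, in several of the markers, the core AGGAAGT bound by PU.1, the ETS factor of myeloid cells encoded by Spi1. Of the 10 symbols, 7 were searched, namely Mrc1, Lyz2, Cd68, C1qb, C1qc, Cd163 and Ptprc. Adgre1 and C1qa had no matched promoter, and Csf1r was left out beforehand by a rule set by hand. Whether the promoters of Adgre1, C1qa and Csf1r hold the core was therefore not tested. The 250 bases before each RefSeq start were searched on both strands, so a match reads AGGAAGT or, on the other strand, ACTTCCT, in capitals below. The core was chosen after the sequences had been seen. It was present in 5 of the 7, Mrc1, Lyz2, C1qb, C1qc and Ptprc, and in 7.69% of all 32851 RefSeq promoters searched the same way (8.8% of 27025 genes). A match is a run of letters, not a measured binding site. Each line gives a window on the gene's strand with 30 bases on either side of the core.
Mrc1, chr2:14229173-14229239, plus strand: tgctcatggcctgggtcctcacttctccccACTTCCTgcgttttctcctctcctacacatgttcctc
Lyz2, chr10:117282336-117282402, minus strand: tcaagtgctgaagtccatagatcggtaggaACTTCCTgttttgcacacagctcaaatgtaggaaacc
C1qb, chr4:136886217-136886283, minus strand: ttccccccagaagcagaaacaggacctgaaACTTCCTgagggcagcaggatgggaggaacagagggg
C1qc, chr4:136893073-136893139, minus strand: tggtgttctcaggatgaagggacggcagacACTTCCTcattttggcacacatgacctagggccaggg
Ptprc, chr1:138175382-138175448, minus strand: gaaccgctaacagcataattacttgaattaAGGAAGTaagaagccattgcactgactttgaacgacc
Counted to the RefSeq start, the core ended 205 bases before that of Mrc1, 94 before that of Lyz2 and 47 before that of C1qb. It ended 189 bases before that of C1qc and 107 before that of Ptprc. These RefSeq starts differ from the gene coordinates of the count table, which are given with the levels below. By those coordinates the Ptprc window lies inside the gene, and the other windows shown lie before it. Ptprc, which had a second RefSeq start, held a further ACTTCCT 52 bases before the first.

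Levels of different genes were compared per kilobase of exon. Over the 15 libraries the mean was 20.8 ± 4.69 CPM per kb (SD) for Lyz2, followed by the C1q chains at 5.84 ± 0.994 for C1qa, 5.02 ± 1.01 for C1qb and 4.43 ± 0.969 for C1qc. Csf1r stood at 1.89 ± 0.412, Cd163 at 1.83 ± 0.533 and Mrc1 at 1.22 ± 0.231 CPM per kb. Cd68, at 0.964 ± 0.353, Adgre1, at 0.399 ± 0.127, and Ptprc, at 0.304 ± 0.093, were the lowest on this scale. The C1q chains overlapped in their ranges, and so did Csf1r and Cd163, so neighbours in this order are not all separated by their spread.

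**Figure D1:**
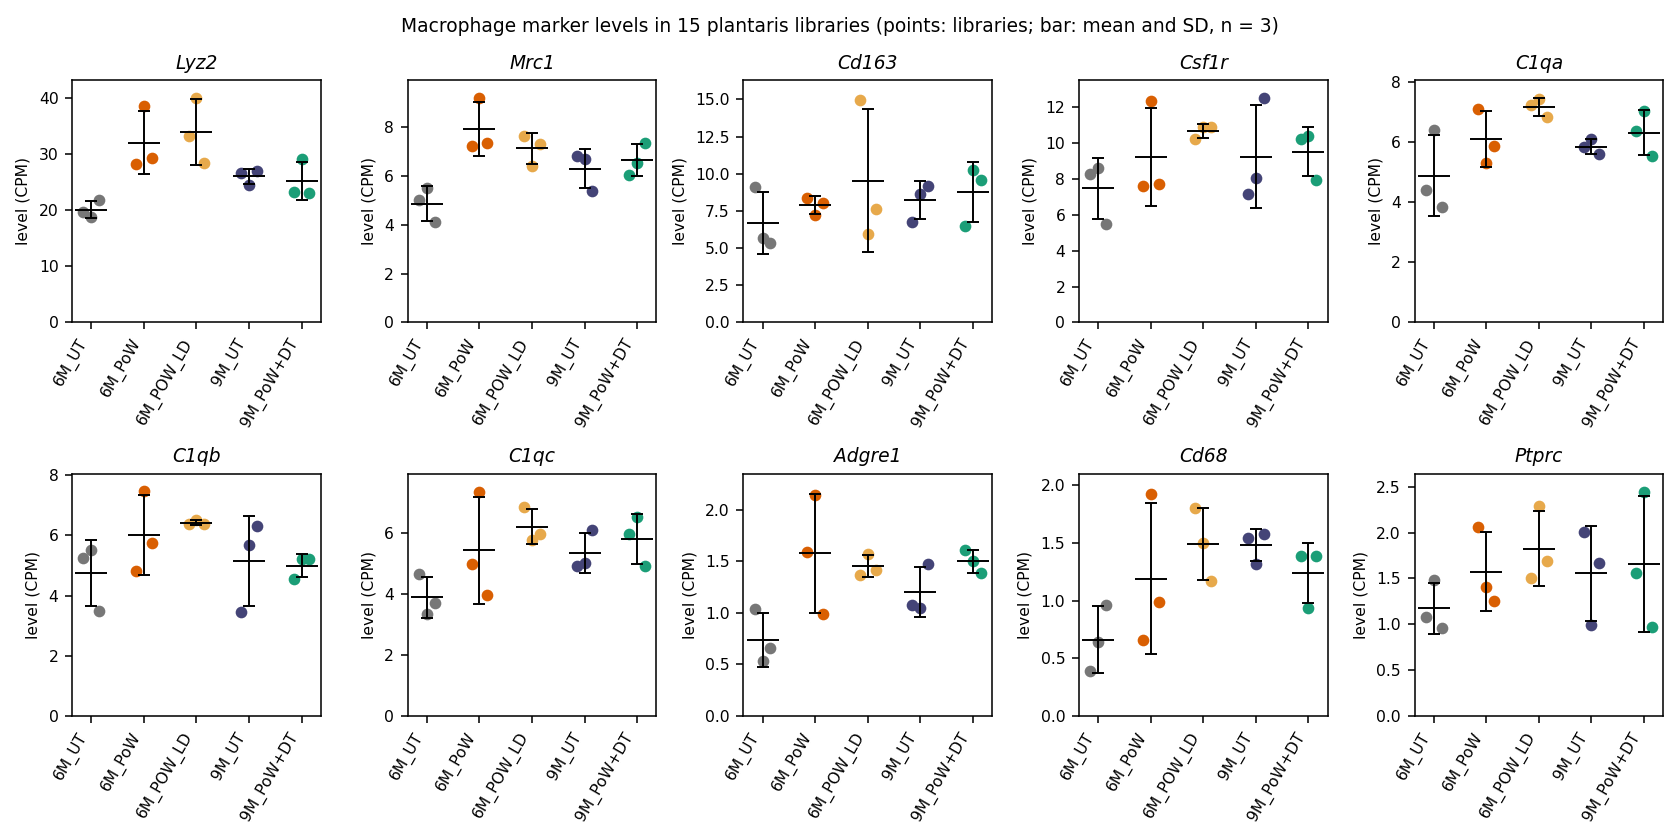
Level of each marker gene in CPM (vertical axes, from 0) in the 5 groups. Points are libraries, and bars give the mean and SD of 3. The 3 libraries of 6M_UT had the lowest group mean in every panel, and groups overlapped in most panels, with Lyz2 at 18.8 to 21.7 CPM in 6M_UT and 28.2 to 38.4 CPM in 6M_PoW.

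Csf1r, the receptor for the macrophage growth factors CSF1 and IL-34, stood at 8.30, 8.60 and 5.50 CPM in 6M_UT, 7.59, 12.3 and 7.73 in 6M_PoW and 10.2, 10.9 and 10.9 in 6M_POW_LD. In 9M_UT it stood at 7.14, 8.04 and 12.5 CPM, and in 9M_PoW+DT at 10.2, 10.4 and 7.95. The LD libraries lay above all 3 of 6M_UT, and every other pair of groups overlapped. Of its exonic bases, 873 are shared with the gene Hmgxb3 on the other strand, so reads there could not be told apart without strand. Transcripts of its ligands and of macrophage transcription factors (10 genes, among them Csf1, Il34, Spi1, Irf8, Nr1h3, Runx1 and Ikzf1) are described with the comparisons.

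Mrc1 (chromosome 2, 14229392 to 14332057) encodes the mannose receptor CD206 and Cd163 (chromosome 6, 124304656 to 124330527) the receptor for haptoglobin with haemoglobin, both carried by resident and repair-type macrophages. Mrc1 stood at 4.99, 5.48 and 4.10 CPM in 6M_UT, 7.21, 9.17 and 7.33 in 6M_PoW and 7.62, 6.41 and 7.30 in 6M_POW_LD. In 9M_UT it stood at 6.81, 6.66 and 5.36 CPM and in 9M_PoW+DT at 6.04, 6.52 and 7.35. All trained, LD and detrained libraries were above the 3 of 6M_UT, 9M_UT overlapped 6M_UT, and the 9-month groups overlapped each other. Cd163 stood at 9.11, 5.66 and 5.37 CPM in 6M_UT, 8.38, 7.21 and 8.05 in 6M_PoW and 14.99, 5.96 and 7.66 in 6M_POW_LD. It stood at 6.76, 8.64 and 9.20 CPM in 9M_UT and 6.47, 10.3 and 9.57 in 9M_PoW+DT. Its 5 groups all overlapped, and 1 LD library held nearly all of the spread of that group.

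Lyz2 (chromosome 10, 117277331 to 117282321) encodes lysozyme M of granules and lysosomes and Cd68 (chromosome 11, 69664213 to 69666153) a glycoprotein of lysosomes and endosomes. Lyz2 stood at 19.6, 18.8 and 21.7 CPM in 6M_UT, 28.2, 38.4 and 29.3 in 6M_PoW and 33.2, 39.98 and 28.4 in 6M_POW_LD. It stood at 26.6, 24.5 and 26.9 CPM in 9M_UT and 23.2, 29.0 and 23.1 in 9M_PoW+DT. The 3 libraries of 6M_UT were the lowest of all 15, and those of 6M_PoW and 6M_POW_LD lay above all of 9M_UT. Neutrophils also carry lysozyme M, and the near-identical copy Lyz1 beside it (chromosome 10, 117287797 to 117292868) was listed at 1 to 53 counts, 0.225% to 10.1% of the Lyz2 count, so some reads may be split between the copies. Cd68 stood at 0.387, 0.637 and 0.960 CPM in 6M_UT, 0.656, 1.92 and 0.989 in 6M_PoW and 1.80, 1.50 and 1.17 in 6M_POW_LD. It stood at 1.54, 1.32 and 1.57 CPM in 9M_UT and 1.39, 0.938 and 1.39 in 9M_PoW+DT. The LD and 9M_UT libraries were all above 6M_UT, and the trained libraries spanned both.

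Adgre1 (chromosome 17, 57358691 to 57483527) encodes the surface receptor F4/80 and Ptprc (chromosome 1, 138062861 to 138175708) the phosphatase CD45 of all white blood cells. Adgre1 stood at 1.03, 0.531 and 0.655 CPM in 6M_UT, 1.59, 2.14 and 0.989 in 6M_PoW and 1.37, 1.57 and 1.41 in 6M_POW_LD. It stood at 1.07, 1.05 and 1.48 CPM in 9M_UT and 1.61, 1.50 and 1.39 in 9M_PoW+DT. All but 1 of the other 12 libraries were above the highest of 6M_UT. Ptprc stood at 1.07, 1.49 and 0.960 CPM in 6M_UT, 2.06, 1.40 and 1.26 in 6M_PoW and 1.50, 2.29 and 1.69 in 6M_POW_LD. It stood at 2.01, 0.991 and 1.67 CPM in 9M_UT and 1.56, 2.44 and 0.971 in 9M_PoW+DT. Only the LD libraries were all above 6M_UT, the lowest at 1.50 CPM against 1.49 CPM.

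The C1q genes lie next to each other on the minus strand of chromosome 4: C1qb at 136880129 to 136886187, C1qc at 136889804 to 136893065 and C1qa at 136895917 to 136898803. C1qa stood at 4.43, 6.40 and 3.84 CPM in 6M_UT, 7.12, 5.32 and 5.89 in 6M_PoW and 7.24, 7.46 and 6.85 in 6M_POW_LD. It stood at 5.83, 6.11 and 5.61 CPM in 9M_UT and 6.38, 7.04 and 5.55 in 9M_PoW+DT. The LD libraries were the only group wholly above 6M_UT. C1qb stood at 5.24, 5.52 and 3.49 CPM in 6M_UT, 4.82, 7.47 and 5.76 in 6M_PoW, 6.38, 6.52 and 6.37 in 6M_POW_LD, 3.45, 5.67 and 6.30 in 9M_UT and 4.56, 5.21 and 5.22 in 9M_PoW+DT. C1qc stood at 4.64, 3.33 and 3.71 CPM in 6M_UT, 4.96, 7.36 and 3.96 in 6M_PoW, 6.85, 5.77 and 5.97 in 6M_POW_LD, 4.90, 5.01 and 6.10 in 9M_UT and 5.95, 6.52 and 4.90 in 9M_PoW+DT. For C1qb the LD libraries, and for C1qc the LD and both 9-month groups, were wholly above 6M_UT. Per kb of exon, the highest chain of a library was 1.14 to 2.23 times its lowest, with a median of 1.41.

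**Figure D2:**
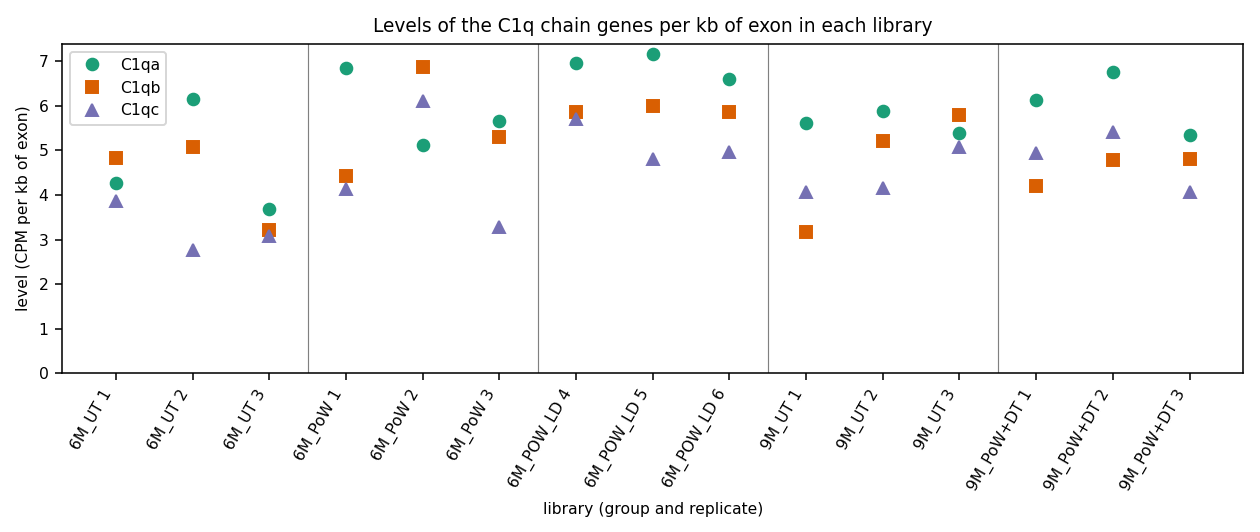
Level of the 3 C1q chain genes in CPM per kb of exon (vertical axis, from 0) in each of the 15 libraries, ordered by group. Circles, squares and triangles mark C1qa, C1qb and C1qc, whose highest value was 1.14 to 2.23 times the lowest within a library.

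Training was compared with no training at 6 months (6M_PoW against 6M_UT) to ask whether 8 weeks of PoWeR moved these transcripts. In edgeR's quasi-likelihood test 0 of the 10 markers were called at an adjusted p under 0.05, where 0% of all 14919 genes tested were called. At an unadjusted p under 0.05 there were 3 markers, Lyz2, Mrc1 and Adgre1, all higher, as were 4.73% of all genes (706), with 749 lower. All 10 log2 fold changes lay above 0, from 0.23 for Cd163 to 1.10 for Adgre1, with a median of 0.45, where 50.2% of all genes did. The trained libraries did not overlap the untrained ones for 2 markers, Lyz2 and Mrc1, both higher, as for 7.89% of all genes, with 8.28% wholly lower.

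Lyz2 had a log2 fold change of 0.67 ± 0.13 (SE, edgeR adjusted p = 0.118) and Mrc1 one of 0.70 ± 0.18 (adjusted p = 0.210), with all 3 trained libraries above all 3 untrained. DESeq2, which called 117 genes of the whole table against 0 by edgeR and 0 by limma-voom, called both of them, at adjusted p = 0.00281 and 0.0361. Lyz2 also passed with no filter on low counts (0.68, adjusted p = 0.0490). Adgre1 stood at 1.10 ± 0.39 (adjusted p = 0.372), Cd68 at 0.86 ± 0.46 (adjusted p = 0.579), C1qc at 0.49 ± 0.23 (adjusted p = 0.522) and Ptprc at 0.41 ± 0.40 (adjusted p = 0.772). C1qb at 0.34 ± 0.25, C1qa at 0.31 ± 0.20, Csf1r at 0.31 ± 0.25 and Cd163 at 0.23 ± 0.22 had adjusted p-values of 0.658 to 0.772. The trained library 6M_PoW replicate 2 was the highest of its group in 7 of the 10 markers. Without it the median was 0.36, with all 10 still above 0, and Lyz2 stood at 0.52 (adjusted p = 0.353). With the LD libraries counted as untrained, as their treatment field has it, 9 of 10 lay above 0, Cd163 stood at -0.04 and the median was 0.11. Counted as trained, as their titles have it, they left all 10 above 0, with a median of 0.55.

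**Figure D3:**
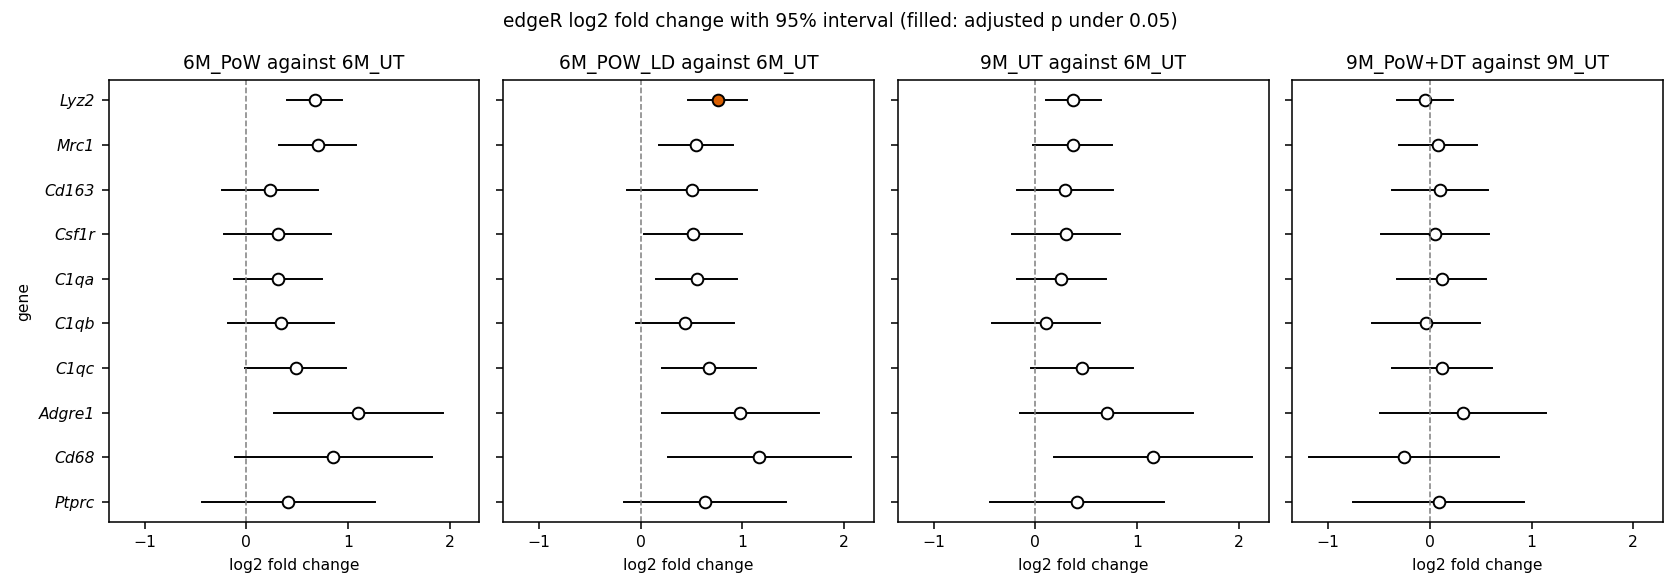
Log2 fold change of each marker gene (horizontal axis) with its 95% interval from edgeR in 4 comparisons. The filled point is the single call, Lyz2 in 6M_POW_LD against 6M_UT, and intervals in 9M_PoW+DT against 9M_UT all include 0. The first 3 panels share the 6M_UT libraries.

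Other genes of the macrophage programme were read from lists, described here by their counts. None of their genes was called after training by edgeR, and DESeq2 called Ccl9, Fcgr3 and C1s1 among them (adjusted p = 0.0338, 0.0481 and 0.0326). Of the CSF1 ligands and macrophage transcription factors 9 of 10 lay above 0 (median log2 fold change 0.36), led by Runx1 at 2.16 ± 0.181 CPM in untrained and 3.32 ± 0.288 CPM in trained muscle (SD, n = 3; 0.62 ± 0.24) and the lymphoid and myeloid factor Ikzf1 at 1.49 ± 0.63. Ikzf1 had only 6 to 8 counts per library in untrained and 13 to 24 in trained muscle. Resident macrophage markers lay above 0 in 13 of 15 tested genes (median 0.48), among them the chemokine gene Pf4 at 0.79 ± 0.32 and the lectin gene Clec10a at 0.87 ± 0.37. Monocyte and recruited macrophage markers lay above 0 in 7 of 8 (median 0.48), with the fatty acid carrier Fabp5 at 0.44 ± 0.26 and the monocyte chemokine receptor Ccr2 at 0.53 ± 0.40. Of that list's 14 genes 6 were not tested, among them Ly6c2, Cx3cr1, Chil3, Plac8 and Trem2, which had at most 20 counts in any library. Chemokine genes lay above 0 in 5 of 5 (median 0.49), with Ccl9 at 1.23 ± 0.258 CPM in untrained and 2.94 ± 0.221 CPM in trained muscle (1.25 ± 0.32) and Ccl6 at 0.68 ± 0.29. The median over all genes tested was 0.00.

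Genes of receptors that bind antibody, Fcgr3 at 1.21 ± 0.32 and Fcgr2b at 0.54 ± 0.34, stood in a list of Fc receptors and their adaptors. Of that list, 5 of 6 tested genes lay above 0 (median 0.53). Genes of MHC class II presentation lay above 0 in 9 of 10 (median 0.47), with H2-Aa at 5.99 ± 1.49 and 9.77 ± 1.11 CPM (0.70 ± 0.20) and the invariant chain Cd74 at 0.48 ± 0.20. Activation genes lay above 0 in 4 of 5 tested (median 0.54), with Retnla at 0.87 ± 0.31 and Nos2 at 0.85 ± 0.43. Their cytokine genes Il1b, Tnf and Il6 and the arginase gene Arg1 had at most 12 counts in a library and were not tested. Complement genes beyond C1q lay above 0 in 16 of 20 (median 0.20), with the C1 proteases C1s1 at 0.51 ± 0.12 and C1ra at 0.44 ± 0.16. Phagocytosis and scavenger receptors lay above 0 in 7 of 11 (median 0.20), with Pros1, the bridge to dying cells, at 0.51 ± 0.19 and Cd300a at 0.95 ± 0.46. Lysosomal genes, which muscle fibres also express, were split at 10 above and 6 below (median 0.04), with Psap at -0.19 ± 0.06.

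Summed levels of other cell types differed between the same groups. Summed over the list, the macrophage markers stood at 50.3 to 58.8 CPM in 6M_UT and 71.2 to 92.8 CPM in 6M_PoW. Mast cell markers (4 listed genes in the table, none at 0) summed to 1.79 to 4.08 CPM in 6M_UT and 5.80 to 10.6 CPM in 6M_PoW, with the proteases Cma1 at 1.95 ± 0.40 and Mcpt4 at 1.47 ± 0.43 on the log2 scale. Cma1 had only 8 to 15 counts per library in 6M_UT and 32 to 48 in 6M_PoW. Fibro-adipogenic progenitor markers summed to 377 to 406 and 506 to 627 CPM, with 9 of 9 genes above 0, Cd34 at 0.56 ± 0.14 and Lum at 0.88 ± 0.23. Endothelial markers summed to 256 to 298 and 325 to 354 CPM, with 6 of 7 above 0, Cdh5 at 0.44 ± 0.12 and Tek at 0.46 ± 0.14. These 4 lists did not overlap between the groups, and 0 of their genes were called by edgeR, while DESeq2 called Cma1, Cd34 and Lum (adjusted p = 0.00275, 0.0460 and 0.0338). Their part in the marker values was not tested.

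T cell, NK cell and neutrophil markers were close to the floor. T and NK cell markers summed to 0.344 to 0.786 CPM in 6M_UT and 0.924 to 2.34 CPM in 6M_PoW, without overlap. Of their 7 genes, 1 to 4 were at 0 in a library, and only Cd3e was tested (1.37 ± 0.87). Neutrophil markers summed to 0.129 to 0.672 and 0.468 to 0.899 CPM, with 2 to 3 of 6 genes at 0 and only Csf3r tested (0.98 ± 0.75). B cell markers, carried by Ighm (0.34 ± 0.39), were well above the floor, at 50.3 to 109 CPM in 6M_UT and 69.4 to 123 CPM in 6M_PoW. Of the dendritic cell markers Cd209a stood at 1.50 ± 0.55, with only 6 to 9 counts per library in 6M_UT, and Zbtb46 at -0.30 ± 0.25. Red cell markers overlapped, at 326 to 893 and 587 to 710 CPM, with Hba-a1, whose reads can be split with its copy Hba-a2, at -0.11 ± 0.53 and Alas2 at -0.15 ± 0.56. Adipocyte markers summed to 9.82 to 12.2 and 5.90 to 9.50 CPM, with Lep at -3.34 ± 0.89 (called by DESeq2, adjusted p = 0.00199) and Retn at -0.94 ± 0.62. Lep had only 3 to 5 counts per library in 6M_PoW. Schwann and satellite cell markers overlapped, at 50.5 to 58.01 and 47.3 to 58.3 CPM, with Cdh15 at -0.24 ± 0.15, and muscle fibre genes too, with Acta1 at 0.26 ± 0.07 (called by DESeq2, adjusted p = 0.0481) and Myh1 at 0.29 ± 0.10.

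**Figure D4:**
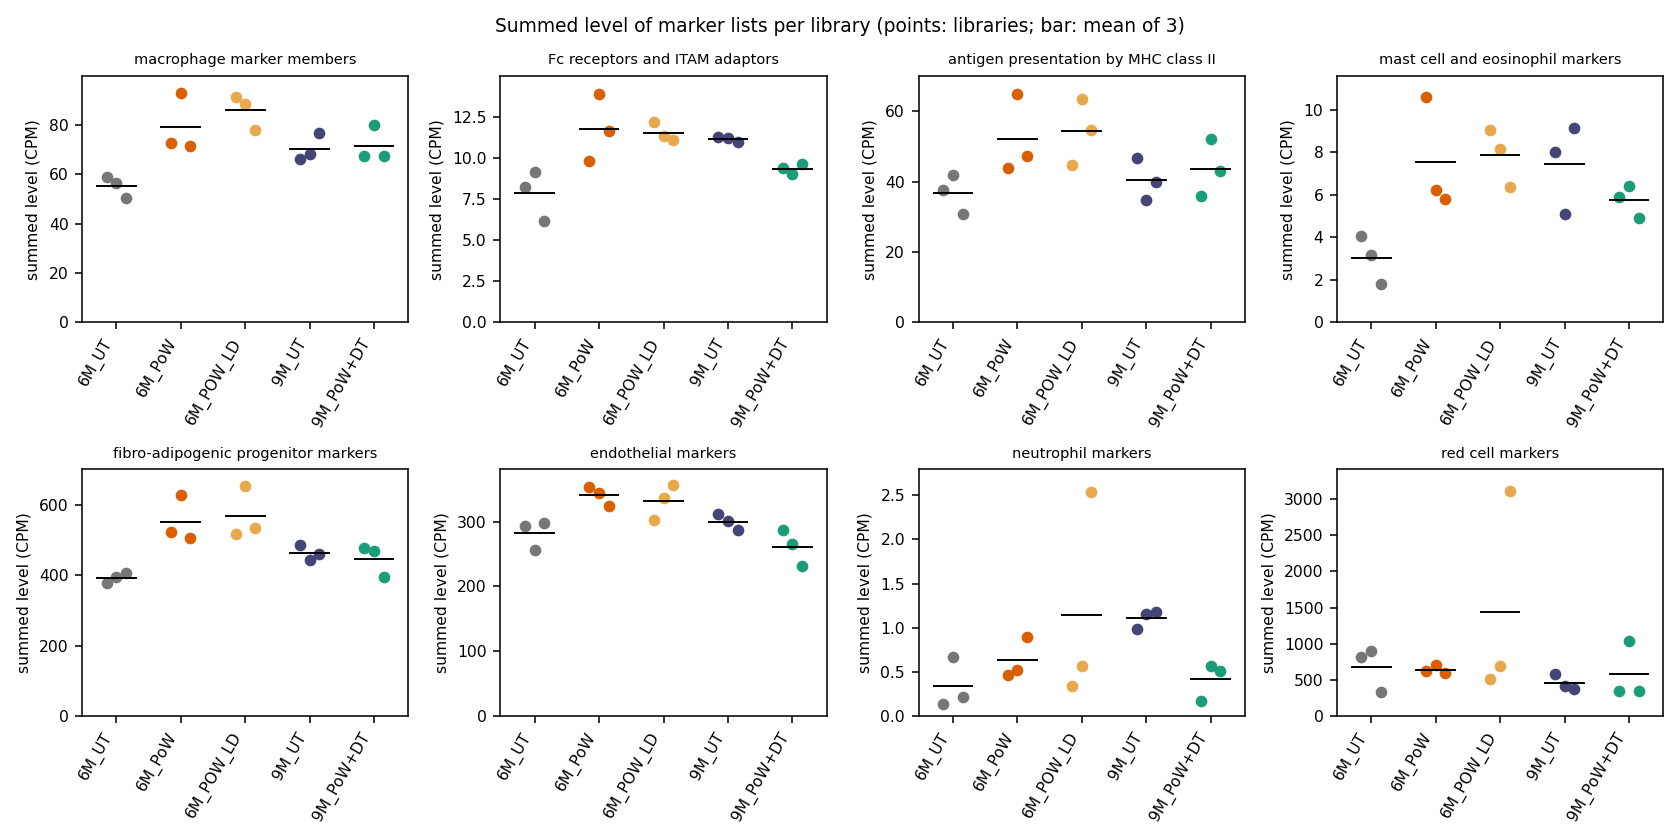
Summed level in CPM (vertical axes, from 0) of the macrophage markers and of 7 other lists in each library, by group, with the mean of 3 as a bar. Sums of 6M_UT lie below those of 6M_PoW in every panel but those of neutrophil and red cell markers, where they overlap. Neutrophil sums are under 2.55 CPM in every library, and 1 LD library holds 3112 CPM of red cell transcripts.

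The LD libraries were compared with the untrained mice of 6 months (6M_POW_LD against 6M_UT), the same controls as for training. Lyz2 rose, to 33.9 ± 5.82 CPM from 20.1 ± 1.50 CPM (SD, n = 3), a log2 fold change of 0.76 ± 0.14 (SE, edgeR adjusted p = 0.00344). It was the 1 call among the 10 markers, where 4.99% of 15181 genes were called. All 10 lay above 0, from 0.43 for C1qb to 1.17 for Cd68, with a median of 0.59, where 51.2% of all genes did. The LD libraries were wholly above the untrained ones for 9 of 10 markers, Cd163 being the exception, as for 12.6% of all genes, and 7 had an unadjusted p under 0.05, as 9.72% of all genes did on the higher side.

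The other markers did not pass. Mrc1 stood at 0.55 ± 0.17 (adjusted p = 0.0784), C1qc at 0.67 ± 0.22 (adjusted p = 0.0912), C1qa at 0.55 ± 0.19 (adjusted p = 0.108), Cd68 at 1.17 ± 0.43 (adjusted p = 0.131) and Adgre1 at 0.98 ± 0.37 (adjusted p = 0.139). Csf1r at 0.51 ± 0.23, Ptprc at 0.63 ± 0.38, Cd163 at 0.50 ± 0.30 and C1qb at 0.43 ± 0.23 had adjusted p-values of 0.218 to 0.378. DESeq2 also called Mrc1 (adjusted p = 0.0419), and without 6M_UT replicate 2 edgeR also called C1qa (0.80, adjusted p = 0.0268). The call of Lyz2 held without each of the 6 libraries in turn, at 0.62 to 0.87 (adjusted p = 0.00313 to 0.0296). Each LD library stood apart from the other two in some list of other cells. LD replicate 6 did so in 2, with 3112 CPM of red cell markers against 504 and 695 CPM in the other two and 2.54 CPM of neutrophil markers against 0.343 and 0.562 CPM. LD replicate 5 held 129 CPM of satellite and Schwann cell markers against 56.8 and 64.0 CPM, and LD replicate 4 held 2.01 CPM of adipocyte markers against 9.37 and 9.88 CPM. The highest Lyz2 level, 39.98 CPM, was that of LD replicate 5. Without LD replicate 5 Lyz2 stood at 0.62 (adjusted p = 0.0296), and without LD replicate 6 at 0.87.

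From the lists, 21 further genes were called between the LD and untrained libraries, 14 of them higher. Of all 15181 genes tested 4.99% were called, 327 higher and 430 lower. The listed genes are named here after their values were seen. Of macrophage-related genes, the lysosomal endopeptidase gene Lgmn rose to 39.95 ± 1.59 CPM from 25.8 ± 1.33 (0.63 ± 0.09, edgeR adjusted p = 7.8e-04) and the lysosomal membrane gene Laptm5 to 6.33 ± 0.677 from 3.26 ± 0.613 CPM (0.95 ± 0.24). The chemokine gene Ccl9 rose by 1.24 ± 0.33 and the complement genes Serping1, the C1 inhibitor, and C1s1 by 0.37 ± 0.09 and 0.45 ± 0.11. In the same comparison the scavenger receptor gene Stab2 fell by 1.34 on the log2 scale, the iron exporter gene Slc40a1 by 1.24, the oxysterol receptor gene Nr1h3 by 0.53 and the lysosomal genes Ctsz, Ctsd and Psap by 0.45, 0.31 and 0.27. Ctsd stood at 403 ± 12.4 CPM in untrained and 326 ± 6.57 CPM in LD libraries, and Stab2 at 6.22 ± 1.15 and 2.46 ± 0.431 CPM. Calls in the macrophage-related lists thus went both ways. Psap stood at 585 ± 24.8 CPM in untrained muscle, where the 10 markers summed to 50.3 to 58.8 CPM. Muscle fibres also express lysosomal genes, and which cells gave these calls was not tested.

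Cells other than macrophages were among these calls. Progenitor genes rose, with Pdgfra at 0.67 ± 0.12, Cd34 at 0.63 ± 0.15, Lum at 0.98 ± 0.26 and Dcn at 0.34 ± 0.09, and so did the mast cell proteases Cma1 (1.84 ± 0.41) and Mcpt4 (1.63 ± 0.40). The muscle fibre genes Acta1, Myh1 and Pvalb rose by 0.33, 0.43 and 0.28, and Actn3 fell by 0.77. Of the 21, Lgmn, Stab2, Ctsd, Pdgfra and Acta1 stayed called without any 1 of the 6 libraries. The other 16 each lost the call without at least 1, most often without LD replicate 5 (15 lost), 6M_UT replicate 1 or 3 (13 each) or LD replicate 4 (10), and 6 were lost without 6M_UT replicate 2 or LD replicate 6. C1s1 lost it without each library, at 0.39 to 0.49 (adjusted p = 0.0611 to 0.113). The summed mast cell markers stood at 6.37 to 9.04 CPM, progenitor markers at 516 to 653 CPM and endothelial markers at 303 to 356 CPM in the LD libraries, all above 6M_UT, and their part in the marker values was not tested.

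Against the trained libraries 6M_PoW, the LD libraries gave 0 calls among the markers, where 2.40% of 15181 genes were called, and 0 at an unadjusted p under 0.05, as 7.09% of all genes did on the higher and 7.18% on the lower side. Of the 10, 8 lay above 0, as did 49.8% of all genes, with a median of 0.19 and a range of -0.16 for Mrc1 to 0.31 for Cd68. All 10 overlapped. Lyz2 stood at 0.08 ± 0.14, with a 95% interval of -0.20 to 0.37, and DESeq2 called none of the markers either. Of the listed genes Nr1h3 fell by 0.79, Stab2 by 1.09 and Ctsd by 0.30, and Lgmn and Pvalb rose by 0.45 and 0.44, in edgeR. The call of Stab2 ended without each of the 6 libraries in turn (adjusted p = 0.0522 to 0.171), that of Lgmn without 6M_PoW replicates 1 or 3 or LD replicate 5 (0.0569 to 0.0777), and that of Ctsd without 6M_PoW replicates 2 or 3 or LD replicate 4 (0.0503 to 0.0763).

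At 9 months, the detrained group was set against its untrained controls (9M_PoW+DT against 9M_UT) to ask whether marker levels differed 12 weeks after training. None of the 10 was called, where 0.0201% of 14919 genes were, and none had an unadjusted p under 0.05, where 3.22% of all genes did on the higher and 3.29% on the lower side. None had groups that did not overlap, where 6.19% of all genes were wholly higher and 5.70% wholly lower. Log2 fold changes ran from -0.25 for Cd68 to 0.32 for Adgre1, with 7 above 0, where 50.9% of all genes were, and a median of 0.08. Lyz2 stood at -0.05 ± 0.13, with a 95% interval of -0.32 to 0.22, and Mrc1 at 0.08 ± 0.18, with an interval of -0.30 to 0.46. DESeq2, which called 30 genes in all, called none of the markers. Without 9M_PoW+DT replicate 2, the highest of its group in 6 markers, 4 lay above 0 and the median was -0.03.

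The lists around the markers also gave 0 calls in this comparison. Fc receptors and adaptors were at 9.01 to 9.61 CPM in detrained and 11.0 to 11.3 CPM in untrained muscle, with 3 of 6 genes above 0 and Fcgr3 at -0.49 ± 0.32 on the log2 scale. Mast cell markers were at 4.90 to 6.43 and 5.12 to 9.15 CPM, with 4 of 4 below 0. Endothelial markers were at 232 to 287 and 287 to 311 CPM, with 7 of 7 below 0, and adipocyte markers at 15.9 to 64.3 and 7.78 to 14.7 CPM. Neutrophil markers, which bear on Lyz2, were at 0.174 to 0.563 and 0.980 to 1.18 CPM, with 2 to 4 and 1 to 2 of 6 genes at 0. The highest adipocyte sum, 64.3 CPM, belonged to 9M_PoW+DT replicate 3, and the other two detrained libraries held 15.9 and 16.7 CPM. The part of these cells in the marker values was not tested.

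The detraining difference less the training difference was tested as a contrast of all 4 groups, so it shares all of their libraries. None of the markers was called, where 0.0268% of 14919 genes were, and all 10 lay below 0, with a median of -0.37, where 50.6% of all genes lay above 0. With the LD libraries counted as untrained, 5 of 10 lay above 0 and the median was -0.07. With them counted as trained, 0 of 10 lay above 0 and the median was -0.45. With the 9-month groups exchanged, as their treatment field has it, 0 of 10 lay above 0 and the median was -0.55. The contrast stood at -0.72 ± 0.18 for Lyz2 (edgeR adjusted p = 0.222) and -0.62 ± 0.25 for Mrc1 (adjusted p = 0.450), the 2 with an unadjusted p under 0.05, as 4.69% of all genes had on the lower side and 4.79% on the higher. Side by side, Lyz2 stood at 0.67 in training and -0.05 in detraining, Mrc1 at 0.70 and 0.08, and Adgre1 at 1.10 and 0.32. Cd68 had the lowest contrast, -1.11 ± 0.63, with an interval of -2.46 to 0.23.

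Untrained mice of 9 and 6 months were compared directly (9M_UT against 6M_UT), again with the 6M_UT controls. None of the markers was called, where 0.0134% of 14919 genes were. All 10 lay above 0, with a median of 0.37, where 49.0% of all genes did, and the older libraries were wholly above the younger for 4, Lyz2, Cd68, Adgre1 and C1qc, as for 5.34% of all genes. At an unadjusted p under 0.05 there were 2, Lyz2 and Cd68, as 3.21% of all genes on the higher side and 3.51% on the lower. Cd68 stood at 1.16 ± 0.46 (edgeR adjusted p = 0.657), Adgre1 at 0.70 ± 0.40 (adjusted p = 0.809), C1qc at 0.46 ± 0.24 (adjusted p = 0.764) and Lyz2 at 0.37 ± 0.13 (adjusted p = 0.583). Beside them, mast cell markers summed to 5.12 to 9.15 CPM in 9M_UT, above the 1.79 to 4.08 CPM of 6M_UT, and progenitor markers to 444 to 485 CPM, above 377 to 406. Neutrophil markers summed to 0.980 to 1.18 CPM in 9M_UT, above the 0.129 to 0.672 CPM of 6M_UT, and B cell markers to 115 to 177 CPM, above 50.3 to 109. The part of these cells in the marker values was not tested. With the LD libraries counted as untrained, 7 of 10 markers lay above 0, the median was 0.04, Lyz2 stood at -0.05 and 0 had an unadjusted p under 0.05. With the 9-month groups exchanged, as their treatment field has it, all 10 lay above 0, the median was 0.42 and 4 had an edgeR unadjusted p under 0.05.

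Across the 5 groups, 6M_UT had the lowest mean for all 10 markers, where 17.9% of 15181 genes had their lowest mean there. This count was made after the values were seen. It was 9 of 10 without 6M_UT replicate 3, when C1qb was lowest in another group, and 21.5% of all genes were then lowest in 6M_UT. That library was the lowest of its group in 6 markers. The training, LD and age comparisons all use these 3 libraries as controls, and their fold changes are therefore not separate evidence. The highest group mean was 6M_POW_LD for Lyz2, Cd68, Csf1r, Cd163, Ptprc and the 3 C1q genes, and 6M_PoW for Mrc1 and Adgre1. Neighbouring groups in that order overlapped in all but 4 of the 40 steps: from 6M_UT to 9M_UT for Adgre1 and C1qc, and from 6M_UT to 9M_PoW+DT and from 9M_UT to 6M_PoW for Lyz2.

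How far the marker levels varied together was described over the 15 libraries, which share their depth and the groups. The 45 pairs of markers had a median Pearson r of 0.49, with 44 above 0, and the highest, 0.89, joined Adgre1 and C1qc. After each group's mean was taken out, the median was 0.13 and 32 of 45 lay above 0. Some pairs were still high on that scale, with Adgre1 and C1qc at 0.86, Csf1r and C1qb at 0.80 and Csf1r and C1qc at 0.67. Among 11327 other genes (average log2 CPM 1 or more), the 8 whose log2 CPM most resembled the mean of the markers over the 15 libraries were Ecm1 (r = 0.89), Timp2 (0.88), Angptl1 (0.85), Pars2 (0.85), Ccl9 (0.84), Pitpnm3 (0.82), Peak1 (0.81) and Col5a2 (0.80). Ecm1, Timp2 and Col5a2 encode proteins of the extracellular matrix or its protease control, and Ccl9 a chemokine. After removal of the group means, r ran from 0.12 for Peak1 to 0.75 for Pars2, with Ecm1 at 0.57, Timp2 at 0.61 and Col5a2 at 0.26. Over the 6 libraries of the 9-month groups alone it ran from -0.18 for Pitpnm3 to 0.76 for Ccl9, with Peak1 at 0.02.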

How the data were processed

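RNA-seq of 15 plantaris libraries was analysed from the table of expected counts per gene deposited by the authors. Of its values, 26.24% to 31.28% per library were not whole, and they were rounded to whole numbers for every test. The submitters' processing notes name STAR 2.7.3a, Partek, DESeq2 and mm10, with no roles. How reads were counted, with which strand setting and gene models, is not stated in the labels or processing notes. The table had 0 value columns that could not be tied to a sample.

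The 10 markers, and 21 further gene lists of macrophage programmes and of other cell types, were chosen with earlier results of these data known. From each list the 2 genes with the smallest training p were named, and others are said to be chosen after their values were seen. For 2 lists 1 of these genes is not reported here. Tests were made in R 4.3.3 with edgeR 4.0.16 (filterByExpr, TMM scaling, robust quasi-likelihood test, Benjamini-Hochberg adjustment over all genes tested, threshold 0.05). Training, detraining, their difference and age were fitted on 12 libraries (14919 genes tested) and the LD comparisons on all 15 (15181 genes). Levels are CPM of the TMM-scaled library total over all 15 libraries. Alternatives were DESeq2 1.42.0, limma-voom 3.58.1, relative log expression scaling, other filters, only the groups compared, a replicate block, each library left out, the LD libraries added to either 6-month group, and the 9-month groups exchanged. Figures were drawn with matplotlib 3.10.9 in Python 3.11.15.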

Additional observations from a re-analysis of the deposited data

How the results depend on the processing

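Scaling by relative log expression and a filter of at least 1 CPM in 3 libraries kept every count of genes and markers called within 1.5 times. DESeq2 called 117 genes in training (2 markers), 30 in detraining, 98 in their difference, 58 in age, 1163 in LD against untrained (2 markers) and 675 in LD against trained. By limma-voom 0 genes were called in detraining, the difference and age. With no filter 8 were called in training (1 marker), 10 in the difference and 10 in age. With only the groups compared 4 were called in training, 18 in detraining, 10 in age and 387 in LD against untrained. With the 9-month groups exchanged 0 were called in the difference and in age. LD libraries added to 6M_PoW gave 29 in training (1 marker, Lyz2) and 2 in the difference, and added to 6M_UT 1 in the difference. Leaving out 1 library gave 0 to 10 genes in training, 1 to 4 in detraining, 0 to 26 in the difference, 1 to 5 in age, 288 to 707 in LD against untrained (1 to 2 markers) and 157 to 231 in LD against trained.

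After each group's mean was taken out of every gene, same-numbered libraries of 2 groups correlated at -0.16 to 0.13 over 15181 genes. With 3 libraries a group and no comparison of unlike numbers, this cannot settle whether replicate numbers pair the samples. A replicate block gave 1 gene in training and 5 in age, Lyz2 at 0.66 (edgeR adjusted p = 0.136) and Mrc1 at 0.70 (0.256) in training, and Hba-a1 turned to 0.0013. It changed no call of a marker.

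Some uncalled log2 values changed sign, and the cause was not tested. By limma-voom Hba-a1 stood at 0.0241 in training and C1qb at 0.0153 in detraining. LD libraries added to 6M_PoW gave Alas2 0.73 and Hba-a1 0.57 in training. Added to 6M_UT they gave Cd163 -0.0428, Ighm -0.11 and Csf3r -0.13 in training, Csf1r 0.0156, C1qa 0.10, C1qc 0.0069, Cd163 0.14 and Ptprc 0.0206 in the difference, and Lyz2 -0.0526, C1qa -0.0475 and C1qb -0.12 in age. Without 1 library, training values ran from -0.46 to 0.12 for Hba-a1, -0.51 to 0.22 for Alas2 and -0.47 to 0.0108 for Zbtb46. LD against untrained ran from -0.63 to 0.25 for Retn, -0.0402 to 0.63 for Clec10a, -0.41 to 0.065 for Zbtb46 and -0.24 to 1.43 for Hba-a1. The difference ran from -0.42 to 0.0443 for Cd163 and -0.42 to 0.0205 for Csf1r, and age from -0.07 to 0.33 for C1qb. LD against trained ran from -0.0553 to 0.24 for Lyz2, -0.044 to 0.28 for C1qb, -0.36 to 0.17 for Adgre1 and -0.21 to 0.52 for Cd163. Detraining ran from -0.11 to 0.33 for Csf1r, -0.0323 to 0.28 for Cd163, -0.26 to 0.14 for C1qb, -0.30 to 0.35 for Ptprc, -0.0219 to 0.14 for Mrc1 and -0.17 to 0.0068 for Lyz2. With 9 to 61 counts per library, Cd68, Adgre1 and Ptprc are the markers that depth limits most.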
